A study of Mus musculus with 11 samples.

Results

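Ddx4, Dazl, Mael, Mov10l1, Piwil2, Asz1, Tdrd1 and Tdrd9 encode proteins of the germ granule and of the PIWI-interacting RNA (piRNA) pathway, and their RNA was followed in whole mouse ovaries of 3 ages. They were taken by gene symbol from the deposited count table, where all 8 were found among 54232 rows. The rule used symbols and no measured value, but the list was chosen with earlier results of these data known. The ovaries came from wild-type (WT) mice, with no other allele and no agent named at any age. There were 4 libraries of the youngest age (2 months), 4 of 18 month and 3 of 24 month ovaries. The names of the libraries give 8 weeks for the 2 month group and 22 months for the 24 month group, and the groups are called here by their labelled age. The design text contrasts ovaries of young and old reproductive age with ovaries past reproduction. The labels do not say whether a library came from 1 animal or from pooled animals, so p-values measure the spread between these samples, which may be technical.

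Germ cells hold RNA and protein in granules without a membrane, where DEAD-box helicases, Tudor proteins and PIWI proteins meet. PIWI proteins carry piRNAs, short RNAs that guide them to transposon transcripts, and Tudor proteins bind PIWI proteins at methylated arginines. In mice this pathway is known as essential in the male germ line, where loss of Piwil2, Mov10l1, Mael, Asz1, Tdrd1 or Tdrd9 arrests sperm formation, while mutant females are fertile. In the ovary these genes are known from oocytes, and Dazl, unlike most of the others, is needed in both sexes.

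The libraries held 26061630 to 33407509 counts each, except the last pair at 18 months, replicates 3 and 4, with 5231724 and 8892915. The counts of those 2 libraries differed by no more than counting noise (chi-square of 1.106 per gene, against at least 32.15 for any other pair of 1 age), and they were counted as 1 sample with 14124639 counts. This left 4, 3 and 3 samples. Summed levels in CPM (a gene's counts as a share of the library total, scaled by TMM to a common size) of 12 genes of growing oocytes were 295 to 690 in young ovaries, 37.3 to 81.3 in the 18 month group and 6.89 to 51.0 in the 24 month group. Summed granulosa cell markers lay at 2891 to 3938 CPM at 2 months and 1412 to 3208 CPM at 24 months, where 4 of 8 fell by edgeR (list median log2 fold change -1.41). Luteal and theca cell markers lay at 17732 to 41440 CPM at 2 months and 2996 to 13305 CPM at 24 months, where 2 of 5 fell (list median -1.22). In the same comparison 15.8% of all genes tested were called lower. Markers of oviduct epithelium lay at 9.58 to 19.6 CPM at 2 months and 27.1 to 858 CPM at 24 months, and the third 24 month sample was the highest. Macrophage markers lay at 226 to 285 CPM at 2 months and 537 to 617 CPM at 24 months. The part of these differences in the results on the 8 genes was not tested. In a whole organ, fewer cells of a type and less RNA per cell cannot be told apart.

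Most of the 8 genes had several times less RNA in ovaries of both older ages than in ovaries of 2 months, and Piwil2, the gene of a PIWI protein, was the exception at 24 months. At 18 months Ddx4, Mael, Mov10l1, Asz1, Tdrd1 and Tdrd9 fell, 6 of 8 past an adjusted p of 0.05 in edgeR (quasi-likelihood F-test, Benjamini-Hochberg over 20331 genes), and none rose. Among all genes tested, 5.51% were called lower in that comparison and 6.04% higher, 11.6% in all. At 24 months against 2 months 7 of 8 fell, against 15.8% of all genes called lower and 19.2% called higher, 35% in all. The median log2 fold change of the 8 was -2.78 at 18 months and -3.37 at 24 months, beside 0.01 and 0.03 over all genes tested. Every 18 month sample lay below every 2 month sample for all 8 genes, which held for 13.7% of all genes tested, and every 24 month sample did so for 7 of the 8, against 20.4% of all genes. Both comparisons use the same 2 month samples. The count of 6 at 18 months leaned on single samples: it was 2 without the first or the second 2 month sample, 3 without 2 month replicate 4, 4 without the first 18 month sample, 1 without the second and 2 without the summed one. The count of 7 at 24 months was 5 without the second 2 month sample and 6 without the second 24 month sample. Summed over the 8 genes, the level was 33.7, 46.5, 26.9 and 27.4 CPM in the 2 month samples, 6.87, 4.82 and 5.90 CPM at 18 months and 8.66, 5.46 and 6.51 CPM at 24 months.

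**Figure D1:**
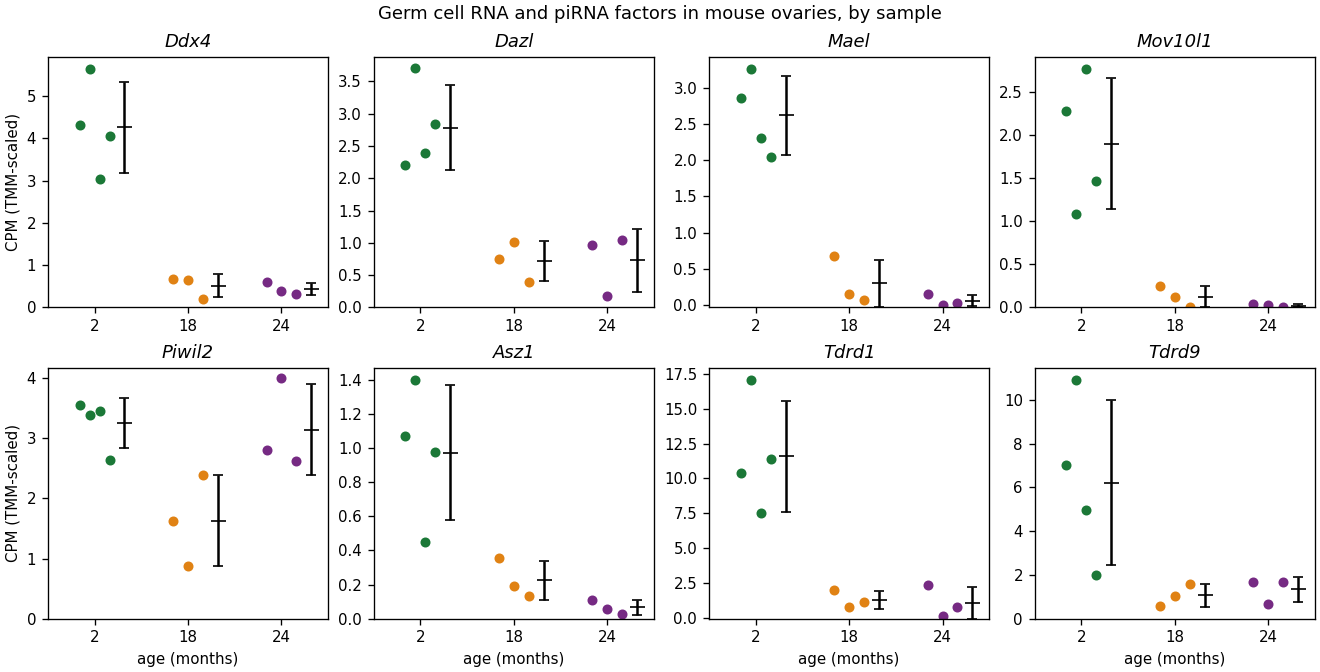
Level of each of the 8 genes in every sample, in TMM-scaled CPM, by age in months (linear axes, a scale for each gene); points are samples, with the third 18 month point the sum of 2 libraries, and the bar beside them is the mean ± SD. For 7 genes the older samples lie below all 4 samples of 2 months, and for Piwil2 the 24 month samples overlap them.

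The sequence before the start of 7 of the 8 genes was in RefSeq's promoter table (build GRCm38.p6, 250 bases before to 50 after the start), and Piwil2 had no entry. The E-box CACGTG, a palindrome that factors of the basic helix-loop-helix type bind, stood in 5 of these 7 promoters, those of Ddx4, Mael, Mov10l1, Tdrd1 and Tdrd9, and in 7.24% of all 27025 promoters of the table. These 5 are shown because they are the promoters of the group that hold the motif, with the E-box in capitals. Stretches inside an annotated exon of the gene in GENCODE M21 were left off. The E-box of Ddx4 lies in the first exon of a second annotated transcript, so only 30 bases around it are printed. The stretches, each 5′ to 3′ on the gene's strand, are chr13:112652322-112652351 (minus strand) for Ddx4, chr1:166238748-166238994 (minus) for Mael, chr15:88982744-88982908 (plus) for Mov10l1, chr19:56825959-56826208 (plus) for Tdrd1 and chr12:111971309-111971558 (plus) for Tdrd9.
Ddx4: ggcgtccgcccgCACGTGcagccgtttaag
Mael: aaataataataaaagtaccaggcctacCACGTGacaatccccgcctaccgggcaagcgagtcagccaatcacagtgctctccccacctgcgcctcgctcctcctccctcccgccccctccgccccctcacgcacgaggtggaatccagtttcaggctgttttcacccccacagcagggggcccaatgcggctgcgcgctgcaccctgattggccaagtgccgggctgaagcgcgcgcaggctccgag
Mov10l1: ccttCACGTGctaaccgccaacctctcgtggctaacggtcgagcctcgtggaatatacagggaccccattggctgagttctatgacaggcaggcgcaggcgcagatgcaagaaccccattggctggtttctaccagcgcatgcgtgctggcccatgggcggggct
Tdrd1: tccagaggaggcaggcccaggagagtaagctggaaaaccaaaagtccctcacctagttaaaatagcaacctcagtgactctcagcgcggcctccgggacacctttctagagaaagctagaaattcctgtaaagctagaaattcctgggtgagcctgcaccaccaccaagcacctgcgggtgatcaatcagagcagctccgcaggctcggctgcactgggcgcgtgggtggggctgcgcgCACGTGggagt
Tdrd9: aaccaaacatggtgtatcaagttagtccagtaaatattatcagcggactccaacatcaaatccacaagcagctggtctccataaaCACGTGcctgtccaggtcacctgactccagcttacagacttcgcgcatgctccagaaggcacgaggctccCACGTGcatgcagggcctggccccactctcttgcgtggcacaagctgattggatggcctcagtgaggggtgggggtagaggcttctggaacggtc

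The first letter of the E-box stood at -29 from the start in Ddx4, -223 in Mael, -246 in Mov10l1 and -11 in Tdrd1, and Tdrd9 held a pair at -165 and -95. The other 3 motifs were searched on both strands, and none of their matches overlapped an E-box. The E2F letters TTCCCGC stood in Ddx4 alone, at -136, and in 4.66% of all promoters. The MYB letters AACNGTT and the NOBOX letters TAATTG stood in none of the 7, against 4.36% and 8.15% of all promoters. The 7 promoters held from 10 CG dinucleotides in Tdrd9, more than 56.1% of all promoters, to 38 in Ddx4, where the median of all promoters was 7. Their median of 20 lay below that of other piRNA pathway genes (23), somatic relatives (25) and miRNA machinery genes (37), and above that of germ cell mRNA binding genes (15) and growing oocyte genes (3.5). By comparison, the E-box stood in 3 of 15 promoters of other piRNA pathway genes, 3 of 14 of germ cell mRNA binding genes and 1 of 6 of growing oocyte genes. It also stood in 1 of 5 of early follicle genes and 2 of 7 of granulosa cell markers. None of 9 miRNA machinery promoters and none of 6 of somatic relatives held it. The letters do not sort the genes by their change, since Dazl and Asz1 fell at 24 months without an E-box in this window. A match is a description of the letters, not evidence that a factor binds.

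**Figure D2:**
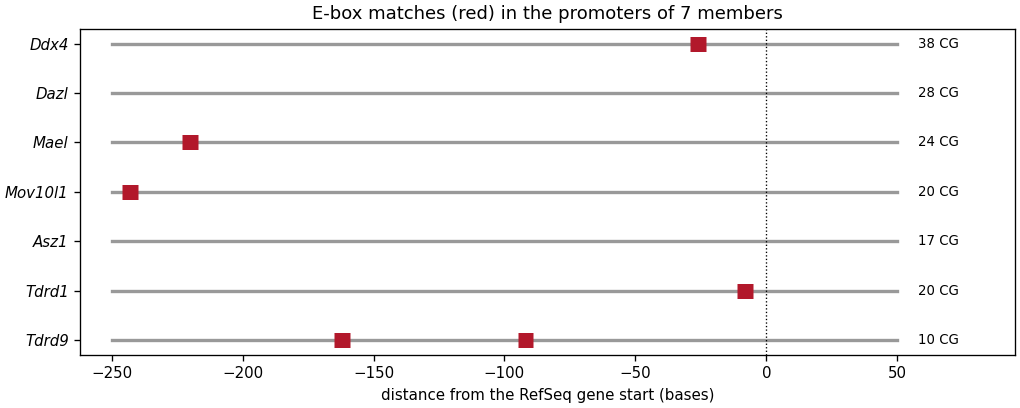
Place of each E-box (red squares) in the RefSeq promoters of 7 genes, with the distance from the gene start in bases on the x axis, a dotted line at the start and the number of CG dinucleotides at the right. The matches lie near the start in Ddx4 and Tdrd1 and farther upstream in Mael, Mov10l1 and Tdrd9.

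Ddx4 encodes the germ cell DEAD-box RNA helicase known as mouse Vasa, a core protein of the germ granule (chr13:112598333-112652475, minus strand, mm10). Its level was 4.31, 5.66, 3.05 and 4.05 CPM in the 2 month samples, 0.673, 0.662 and 0.199 CPM at 18 months and 0.597, 0.398 and 0.320 CPM at 24 months. The 2 older ages overlapped each other and lay far below every 2 month sample. Ddx4 fell by 3.00 on the log2 scale at 18 months (SE 0.431, adjusted p = 0.0105 by edgeR) and fell by 3.28 at 24 months (SE 0.436, adjusted p = 0.00209). It was the only member called at 18 months in each of 10 fits that left out 1 sample. Dazl encodes an RNA-binding protein that controls translation of germ cell mRNAs (chr17:50279394-50293599, minus strand). Its level was 2.21, 3.70, 2.40 and 2.83 CPM at 2 months, 0.744, 1.01 and 0.398 CPM at 18 months and 0.970, 0.171 and 1.05 CPM at 24 months. The second 24 month sample was the lowest of all 10. The log2 fold change of Dazl was -1.92 at 18 months (SE 0.556), which missed the threshold with an adjusted p of 0.0527 by edgeR, and over all alternatives the adjusted p ran from 0.00655 to 0.160. Dazl fell by 1.93 at 24 months (SE 0.551, adjusted p = 0.0242 by edgeR). This call was lost without the second 2 month sample, with an adjusted p of 0.0542, in a range of 0.000947 to 0.0891 over the alternatives.

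Mov10l1 encodes an RNA helicase that feeds piRNA precursors into processing (chr15:88982909-89055152, plus strand). Its level was 2.28, 1.09, 2.76 and 1.46 CPM at 2 months, 0.248, 0.126 and 0 CPM at 18 months and 0.0373, 0.0285 and 0 CPM at 24 months. At 24 months the 3 samples held 2 counts in all, against 217 in the 4 samples of 2 months, which is 1.14% of the 2 month level with an exact 95% interval of 0.137% to 4.15% for counting error only. Mov10l1 fell by 3.72 at 18 months (SE 0.676, adjusted p = 0.0150 by edgeR) and fell by 6.23 at 24 months (SE 0.839, adjusted p = 0.00209), the latter a fitted value that depends on the prior count. The 18 month call was lost without the second 18 month sample, at an adjusted p of 0.0559, in a range of 1.01e-05 to 0.0559 over the alternatives. Asz1 encodes an ankyrin repeat protein on the outer membrane of mitochondria that helps build the granules (chr6:18050964-18109061, minus strand). Its level was 1.07, 1.40, 0.447 and 0.974 CPM at 2 months, 0.354, 0.189 and 0.133 CPM at 18 months and 0.112, 0.0569 and 0.0291 CPM at 24 months. The 3 ages did not overlap, but the 18 month samples held 10, 6 and 2 counts and the 24 month samples 3, 2 and 1. The lowest 18 month and the highest 24 month value therefore differ by less than counting error. The 24 month samples held 6 counts in all, 6.21% of the 2 month level (exact 95% interval 2.23% to 13.9%). Asz1 fell by 2.04 at 18 months (SE 0.506, adjusted p = 0.0328 by edgeR) and fell by 3.86 at 24 months (SE 0.585, adjusted p = 0.00277).

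Mael encodes Maelstrom, a protein with an HMG box that takes part in transposon silencing (chr1:166201201-166238747, minus strand). Its level was 2.86, 3.26, 2.31 and 2.04 CPM at 2 months, 0.673, 0.158 and 0.0663 CPM at 18 months and 0.149, 0 and 0.0291 CPM at 24 months. The first sample of each older age was the highest of its age. The 24 month samples held 5 counts against 312 at 2 months, 1.97% of that level (exact 95% interval 0.637% to 4.66%). Mael fell by 3.04 at 18 months (SE 0.745, adjusted p = 0.0324 by edgeR) and fell by 5.49 at 24 months (SE 0.906, adjusted p = 0.00364).

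Tdrd1 encodes a protein with several Tudor domains that binds PIWIL2 (chr19:56826209-56870012, plus strand). Its level was 10.4, 17.1, 7.55 and 11.4 CPM at 2 months, 1.98, 0.757 and 1.13 CPM at 18 months and 2.31, 0.114 and 0.785 CPM at 24 months. The second 24 month sample, with 4 counts, lay far below the first, with 62. Tdrd1 fell by 3.16 at 18 months (SE 0.785, adjusted p = 0.0338 by edgeR) and fell by 3.45 at 24 months (SE 0.794, adjusted p = 0.0113). Tdrd9 encodes a Tudor protein that is also a helicase and works with PIWIL4 in the mouse testis (chr12:111971559-112068854, plus strand, overlapped by Rd3l on the other strand). Its level was 7.03, 10.9, 4.95 and 1.98 CPM at 2 months, 0.567, 1.04 and 1.59 CPM at 18 months and 1.68, 0.683 and 1.69 CPM at 24 months. It varied most among the young samples, with a coefficient of variation of 60.5%, and its lowest young sample lay just above its highest older sample. Tdrd9 fell by 2.57 at 18 months (SE 0.626, adjusted p = 0.0318 by edgeR) and fell by 2.21 at 24 months (SE 0.606, adjusted p = 0.0213). The 24 month call was lost without the second 2 month sample (adjusted p = 0.0502 by edgeR) or the second 24 month sample (0.0700), in a range of 0.000851 to 0.0700 over the alternatives.

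Leaving out 1 sample also ended 18 month calls of Mael, Asz1, Tdrd1 and Tdrd9, whose adjusted p by edgeR rose to at most 0.111, 0.114, 0.114 and 0.0994. Their log2 fold changes kept their sign in all 19 fits. Mael and Asz1 were not called without the first, second or last 2 month sample, the second 18 month sample or the summed one. Tdrd1 was lost without those and without the first 18 month sample, and Tdrd9 without the first or second 2 month sample or any of the 3 samples of 18 months. Tdrd1 was also lost with no filter on low counts (adjusted p = 0.0676 by edgeR) and Tdrd9 by limma-voom (0.101), in ranges of 0.00017 to 0.114 and 0.000352 to 0.101 over the alternatives.

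Piwil2 encodes MILI, the PIWI protein that loads piRNAs in mouse oocytes and male germ cells (chr14:70372477-70429383, minus strand). Its level was 3.55, 3.39, 3.45 and 2.65 CPM at 2 months, 1.63, 0.883 and 2.39 CPM at 18 months and 2.80, 4.01 and 2.62 CPM at 24 months. The 18 month samples lay below all others, and the 24 month samples spanned the range of the young. Piwil2 was the steadiest member at 2 months, with a coefficient of variation of 12.7%. The log2 fold change was -1.01 at 18 months (SE 0.339), which missed the threshold by edgeR (adjusted p = 0.0792) and passed by DESeq2 (adjusted p = 0.0183), in a range of 0.0183 to 0.196 over the alternatives. At 24 months against 2 months it was -0.05 (SE 0.325, adjusted p = 0.912 by edgeR), and the sign turned in 4 of 19 fits, to 0.14 when libraries were scaled by their totals alone and to 0.19 by limma-voom. The 24 month samples held 306 counts, 98.2% of the 2 month level with an exact 95% interval of 84.2% to 114% for counting error only. In GENCODE M21 no gene on the other strand overlapped Piwil2, and 2 small predicted genes, Gm22725 and Gm24890, lay within it on its own strand. The strand setting of the counting is not given in the sources used here.

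**Figure D3:**
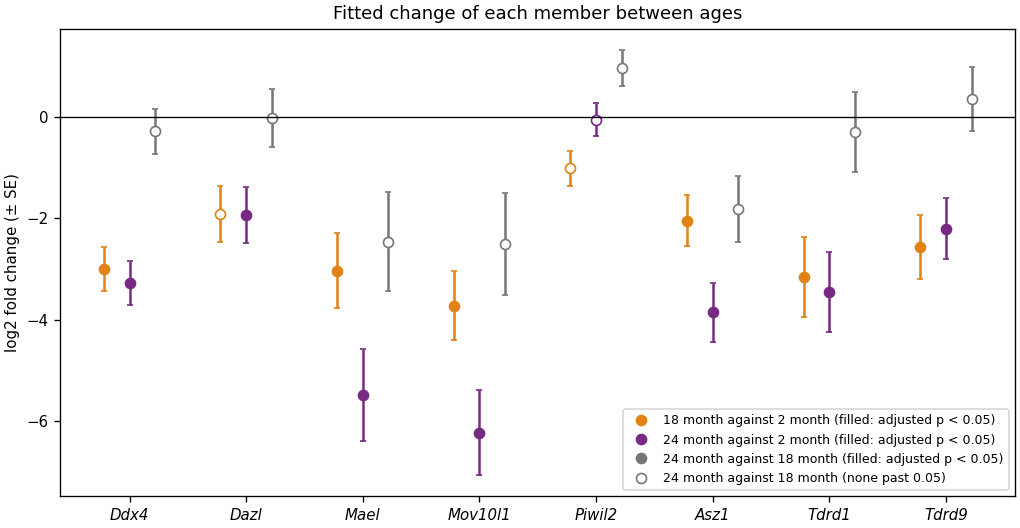
Fitted log2 fold change of each gene in the 3 comparisons of ages, with bars of ± 1 SE from edgeR and filled points for an adjusted p below 0.05. Piwil2 lies at -0.05 for 24 against 2 months, where Mov10l1 lies at -6.23, and no open grey point of 24 against 18 months passed the threshold.

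Piwil2 was also set against each other gene of the group within the same sample, a comparison chosen after its values were seen. The ratios were taken from log2 CPM with a prior count of 2. At 24 months the log2 ratio of Piwil2 to each of the other 7 was higher in every sample than in every 2 month sample. Mean differences ran from 1.94 for Tdrd9 to 4.30 for Mov10l1 and 4.47 for Mael. With so few counts of Mael and Mov10l1 the prior count sets much of their size, so the order of these 2 is not resolved. At 18 months this was so for Ddx4, Mael, Mov10l1 and Tdrd1, and the samples overlapped for Dazl, Asz1 and Tdrd9. An exact two-sided permutation test cannot go below 0.0571 with 3 against 4 samples. Each of these non-overlapping ratios reached that value, with 0.0727 after Benjamini-Hochberg adjustment over 14 ratios. The ratios restate levels given above, since at 24 months Piwil2 was near its 2 month level and the other 7 were lower. They also share the Piwil2 values and the 2 month samples, so these p-values add no separate support. How many other genes would give the same ratios was not counted.

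Per kilobase of annotated exon, the order of levels at 2 months was Tdrd1, Mael, Ddx4, Tdrd9, Dazl, Piwil2, Mov10l1 and Asz1. Tdrd1 stood at 2.13 ± 0.733 and Asz1 at 0.344 ± 0.139 CPM per kilobase (SD, n = 4), and each gene's range overlapped that of its neighbours in the order. At 18 months Piwil2 came first with 0.309 ± 0.142 CPM per kilobase (SD, n = 3), overlapping Tdrd1 at 0.237 ± 0.116. At 24 months Piwil2 stood at 0.594 ± 0.143 CPM per kilobase (SD, n = 3), and its lowest sample, at 0.495, lay above the highest of Tdrd9, the next in order, at 0.311. Piwil2 supplied 7.38% of the summed level per kilobase of the 8 genes at 2 months, 22.3% at 18 months and 41.3% at 24 months. Mov10l1 supplied 5.43%, 2.16% and 0.364%.

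Relative to other oocyte genes of the same sample, the 8 genes differed in direction. The yardstick was the summed CPM of 18 oocyte genes, 6 of early follicles and 12 of growing oocytes, and no test was made. That sum fell from 331 to 748 CPM at 2 months to 17.8 to 65.3 CPM at 24 months. A gene of unchanged CPM therefore rises in share, and the mean CPM of Piwil2 at 24 months was 96.4% of that at 2 months. How many of all genes rose in share without overlap was not counted. Piwil2 equalled 0.582%, 0.453%, 1.04% and 0.483% of that sum at 2 months, 1.63%, 1.69% and 3.56% at 18 months and 4.28%, 22.5% and 10.1% at 24 months. Its mean share was 3.58 times the 2 month value at 18 months and 19.2 times at 24 months, with no overlap. Without the second 24 month sample the latter was 11.2 times. Dazl equalled 0.362%, 0.494%, 0.724% and 0.516% of the oocyte sum at 2 months and 1.48%, 0.958% and 4.03% at 24 months, a mean share 4.12 times as high with no overlap. The third 24 month sample was the highest, and without it the ratio was 2.33. Tdrd9 equalled 1.15%, 1.46%, 1.50% and 0.361% at 2 months and 2.57%, 3.83% and 6.49% at 24 months, 3.84 times as high with no overlap, and 2.86 times without the third 24 month sample. Mael had the opposite direction, with 0.494% ± 0.143 (SD, n = 4) at 2 months and 0.113% ± 0.114 (SD, n = 3) at 24 months, with no overlap. The ratio of these means for Mael was 0.230, and 0.113 without the first 24 month sample. The 24 month shares of Mael rest on 4, 0 and 1 counts, and their counting error is wide enough to allow overlap. The shares of Ddx4, Mov10l1, Asz1 and Tdrd1 at 24 months overlapped those at 2 months. The 8 genes summed equalled 6.22% ± 1.38 (SD, n = 4) at 2 months, 8.29% ± 1.26 (SD, n = 3) at 18 months and 23.0% ± 8.89 (SD, n = 3) at 24 months. Without Piwil2 the sums were 5.57%, 6.0% and 10.7%.

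The shares depended on the oocyte genes chosen. Taf4b, a transcription cofactor gene of the early follicle list, made up 4.12% to 6.86% of the 18 gene sum at 2 months and 18.8%, 58.6% and 49.3% of it at 24 months. Without Taf4b, an alternative chosen after seeing the data, Piwil2 equalled 5.27%, 54.4% and 19.9% at 24 months, Mael stayed lower, and Ddx4 and Asz1 also lay above all 2 month samples. Asz1 did so on 3, 2 and 1 counts, at 0.211%, 0.772% and 0.221% against at most 0.195% at 2 months. Its separation therefore lies within counting error. Against the early follicle genes alone, Ddx4, Mael, Mov10l1, Asz1 and Tdrd1 lay below all 2 month samples at 24 months. Dazl and Tdrd9 overlapped them, and Piwil2 alone lay above, at 3.64 times the 2 month mean. Taf4b made up 52.9% to 63.0% of the early follicle sum at 2 months and 85.7%, 95.6% and 96.1% at 24 months. This yardstick is therefore mostly Taf4b and not an even measure of 6 genes. Piwil2 above and Mael below were the only directions at 24 months that held without overlap for all 4 choices of oocyte genes. These choices share genes and are not separate checks.

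**Figure D4:**
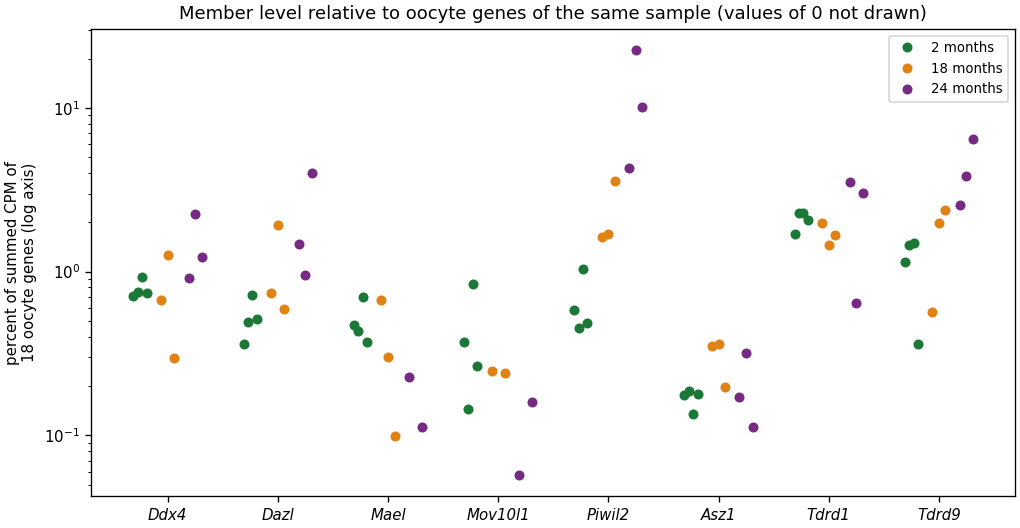
Level of each gene as a percentage of the summed CPM of 18 oocyte genes in the same sample (log axis), coloured by age; points are samples, and values of 0 are not drawn. The 3 purple points of Piwil2 lie at 4.28% to 22.5%, above its green points at 0.453% to 1.04%.

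Between 18 and 24 months none of the 8 genes was called by edgeR at an adjusted p below 0.05, and none by DESeq2 or limma-voom, where edgeR called 0.00492% of all genes tested, or 1 gene, and 0 with a replicate block. Asz1, Mael, Mov10l1 and Piwil2 had an unadjusted p below 0.05, 4 of 8, against 10.4% of all genes tested. Asz1 was lower in every 24 month sample than in every 18 month sample, as were 5.36% of all genes, with a log2 fold change of -1.82 (SE 0.659, adjusted p = 0.458 by edgeR). That rests on 18 counts at 18 months and 6 at 24 months. Piwil2 was higher in every 24 month sample, as were 6.73% of all genes, with 0.96 (SE 0.356, adjusted p = 0.463 by edgeR). Mael had -2.46 (SE 0.972) and Mov10l1 -2.51 (SE 1.01), on 25 against 5 and 11 against 2 counts. Ddx4, Dazl, Tdrd1 and Tdrd9 lay between -0.29 and 0.36, each within 1 SE of 0. Their SE of 0.447 to 0.784 leaves room for a change in either direction.

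Of the other genes of the piRNA pathway, a minority fell and the rest were not called or rose. Of 21 listed, 18 were tested and Tdrd6, Btbd18 and Tcfl5 were too low. At 18 months 3 of 18 fell and none rose, and at 24 months 5 fell and 2 rose by edgeR, with list medians of -0.56 and -0.54. Among all genes tested, 5.51% were called lower and 6.04% higher at 18 months. At 24 months it was 15.8% and 19.2%, 35% in all, so the 24 month count of this list lies near that of all genes. The counts leaned on single samples: the count of genes that fell at 18 months was 0 without the first or second 2 month sample or the second 18 month sample and 1 without the last 2 month sample, the first 18 month sample or the summed one. At 24 months 3 fell and none rose without the first or the second 2 month sample, and 7 fell and none rose with a replicate block. None rose there without the second 24 month sample either, and 1 rose in 5 more of the 10 fits with 1 sample left out. The 3 called at 18 months were Tdrd12, Gtsf1 and Tex15. Tdrd12, a Tudor protein gene, stood at 2.28 ± 0.705 CPM (SD, n = 4) in young and 0.563 ± 0.265 CPM (SD, n = 3) in 18 month ovaries and fell by 2.06 (adjusted p = 0.0165 by edgeR). Gtsf1, whose zinc finger protein aids PIWI slicing, went from 3.43 ± 1.26 CPM (SD, n = 4) to 0.434 ± 0.0485 CPM (SD, n = 3) and fell by 2.98 (adjusted p = 0.0266 by edgeR). Tex15, known for transposon silencing in the mouse testis, went from 80.1 ± 27.4 CPM (SD, n = 4) to 23.1 ± 5.07 CPM (SD, n = 3) and fell by 1.79 (adjusted p = 0.0492 by edgeR). These 3 calls lacked support in some fits with 1 sample left out, where the adjusted p reached 0.0613, 0.0919 and 0.149, and at 24 months they held in all 10. At 24 months Tdrd5, another Tudor protein gene, fell by 1.01 (adjusted p = 0.0354 by edgeR), a call that held in 5 of the 10 fits with 1 sample left out, where the adjusted p reached 0.119. Henmt1, the piRNA methyltransferase gene, fell by 2.25 (adjusted p = 0.0172 by edgeR), on 63 counts at 2 months and 10 at 24 months. Henmt1 was called in 6 of the 7 such fits that tested it, and not without the third 24 month sample (adjusted p = 0.0609 by edgeR).

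The other PIWI genes, named after their values were seen, showed no common direction. Piwil1 was near the limit of detection, with 60 counts at 2 months, 3 at 18 months and 7 at 24 months, and was not called (adjusted p = 0.0678 and 0.0559 by edgeR). Piwil4 stood at 0.798 ± 0.222 CPM (SD, n = 4) at 2 months and 1.72 ± 0.569 CPM (SD, n = 3) at 24 months and rose by 1.11 (SE 0.331, adjusted p = 0.0285 by edgeR). Spocd1, a partner of PIWIL4 in DNA methylation of the mouse male germ line, rose by 1.60 (SE 0.532, adjusted p = 0.0423 by edgeR) from 3.18 ± 0.924 CPM (SD, n = 4) to 9.65 ± 5.81 CPM (SD, n = 3), with the third 24 month sample at 2.99 CPM inside the young range. The 2 rises held in 5 and 3 of the 10 fits with 1 sample left out, where the adjusted p reached 0.121 and 0.144.

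Of 16 genes of germ cell mRNA binding and storage 14 were tested. By edgeR 10 fell and 2 rose at 24 months, with a median of -1.85, and 8 fell and 1 rose at 18 months, with a median of -1.92. Of all genes tested, 15.8% were called lower and 19.2% higher at 24 months, and 5.51% and 6.04% at 18 months. The count of 8 at 18 months leaned on single samples: it was 3 without the first, second or last 2 month sample, 5 without the first 18 month sample, 3 without the second, 2 without the summed one and 4 with a replicate block. The count of 10 at 24 months was 8 to 10 with 1 sample left out. Btg4, an adaptor for mRNA deadenylation in oocytes, went from 9.86 ± 3.60 CPM (SD, n = 4) to 1.33 ± 0.303 CPM (SD, n = 3) at 18 months and fell by 2.88 (adjusted p = 0.00895 by edgeR). Pabpc1l, the oocyte poly(A)-binding protein gene, fell by 2.36 (adjusted p = 0.0127 by edgeR), and Ybx2, which encodes the mRNA storage protein MSY2, fell by 2.74 (adjusted p = 0.0128). At 24 months Btg4 fell by 3.71, Pabpc1l by 2.08 and Ybx2 by 3.41. The genes that rose were Rbm46 at both older ages, by 1.52 and 1.61 (adjusted p = 0.0448 and 0.0168 by edgeR), and Nanos3 at 24 months by 1.43 (adjusted p = 0.0246). With 1 sample left out, the call of Rbm46 held in 3 of 10 fits at 18 months and in all 10 at 24 months, and that of Nanos3 in 5. Both encode RNA-binding proteins of germ cells, and they were named after their values were seen.

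The relatives of these genes that most cells use had log2 fold changes close to 0. Of 7 somatic relatives, Dhx9 alone fell, by 0.40 at 18 months (adjusted p = 0.0306 by edgeR) and 0.35 at 24 months (adjusted p = 0.0230). Ddx3x, a ubiquitous DEAD-box helicase gene, stood at 720 ± 67.0 CPM (SD, n = 4) at 2 months and 616 ± 57.0 CPM (SD, n = 3) at 24 months and was not called (log2 -0.23, adjusted p = 0.305 by edgeR). Mov10, the relative of Mov10l1, stood at 61.3 ± 5.16 CPM (SD, n = 4) and 79.5 ± 8.53 CPM (SD, n = 3) and was not called (log2 0.38, adjusted p = 0.127 by edgeR). Snd1 and Ddx5 were not called at either age. Of 10 genes of the miRNA and siRNA machinery, Xpo5, the exportin of miRNA precursors, alone fell, by 0.37 (adjusted p = 0.0480 by edgeR) and 0.34 (adjusted p = 0.0315). Among all genes tested, 5.51% were called lower at 18 months and 15.8% at 24 months, so 1 call in lists this short is not unusual. Ago4 had a log2 fold change of 0.38 at 18 months (adjusted p = 0.0788 by edgeR). The calls of Dhx9 and Xpo5 at 18 months held in 4 and 1 of the 10 fits with 1 sample left out, and at 24 months each held in 4. All 12 growing oocyte genes and all 5 early follicle genes tested fell at both older ages, with medians of -3.19 and -2.81 at 18 months and -4.44 and -4.28 at 24 months. At 24 months these counts covered every tested gene of both lists with each sample left out. At 18 months the count of 12 growing oocyte genes was 1 without the first 2 month sample, the second 18 month sample or the summed one, 3 without the second 2 month sample and 6 without the last. The count of 5 early follicle genes was 3 without the first 2 month sample and 2 of 6 tested without the summed one.

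**Figure D5:**
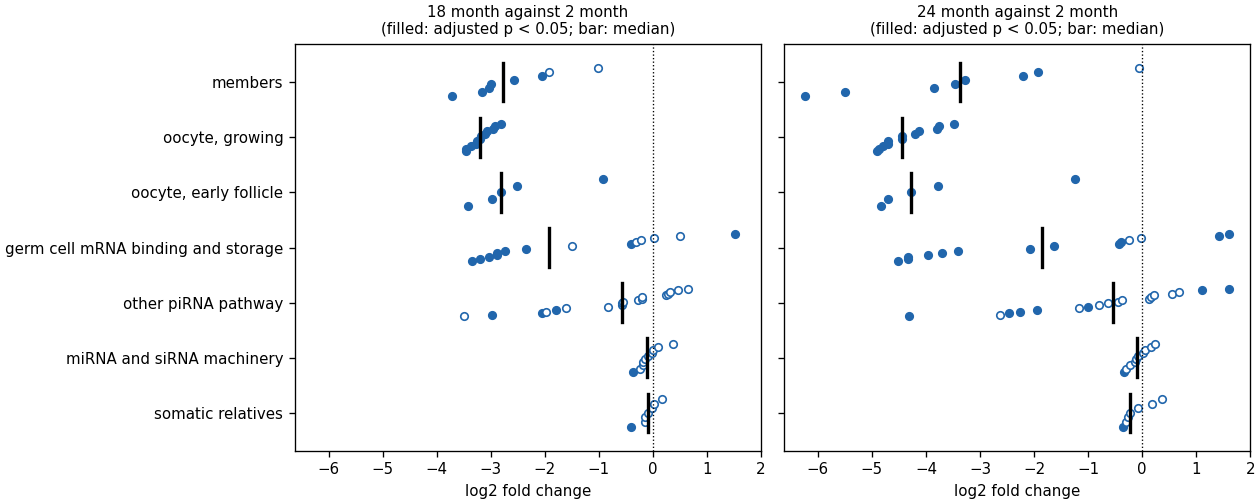
Fitted log2 fold change of every tested gene in 7 lists, for 18 and for 24 months against 2 months; points are genes, filled where the adjusted p by edgeR is below 0.05, and bars are list medians. The 8 genes (top row) spread from -6.23 to -0.05 at 24 months, and the somatic relatives and miRNA genes lie close to 0.

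Among the 8, the pair with the most similar course over the 10 samples was Ddx4 and Asz1. Their centred log2 CPM, with a prior count of 2, differed by a root mean square of 0.605. The least similar pair was Mael and Piwil2 at 2.04. Against the mean course of all 8, Ddx4 was the closest member at 0.394 and Piwil2 the farthest at 1.30. Outside the group the 5 genes closest to that mean course were Uhrf1 (0.240), Mafa (0.280), Fbxo43 (0.290), Pin1rt1 (0.315) and Gbx2 (0.334). These are descriptions over 10 samples that share their libraries, and the order of ages sets much of each course. Uhrf1, which encodes a DNA methylation cofactor, averaged 74.1 CPM in young ovaries, 14.5 CPM in the 18 month group and 12.0 CPM in the 24 month group. Fbxo43, the gene of the meiotic inhibitor EMI2, went from 2.32 to 0.322 and 0.327 CPM.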

How the data were processed

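Whole ovary RNA was isolated by Trizol and column, treated with DNase and made into stranded mRNA libraries, per the labels' protocols. The authors deposited 1 table of raw counts per gene, whole numbers with no normalization, and per the submitters' processing notes FastQC, cutadapt, STAR, HTSeq and mm10 were used. The sources used here give no versions, annotation or strand setting. Every row had a gene symbol, and of 54232 identifiers 54165 were found in GENCODE M21, 52787 with identical coordinates, so exon lengths and overlaps were taken from it.

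Libraries 3 and 4 at 18 months were summed, because their counts agree within sampling noise (over genes with at least 20 counts in the pair). The counts were tested with edgeR 4.0.16 in R 4.3.3 (TMM, filterByExpr, robust quasi-likelihood F-test, two-sided, age alone, 10 samples in 1 model, 7 residual degrees of freedom), with Benjamini-Hochberg adjustment over 20331 genes at 0.05, and all 8 members passed the filter. SE is the log2 fold change over the square root of F. DESeq2 1.42.0, limma-voom 3.58.1, other scalings and filters, 11 separate libraries, a replicate block and each sample left out served as alternatives. Scaling by library totals alone moved the median of all genes by 0.0872 and 0.184 on the log2 scale for 18 and 24 against 2 months, and the share of calls that were higher from 52.3% to 66.7% and from 54.9% to 73%. All 8 members and their changes are reported with TMM. Intervals and zero counts cover counting error only.

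Samples of 18 and 24 months with the same replicate number deviated together from their group means (correlations of 0.398, 0.283 and 0.148, each above 0.1), though different numbers reached 0.144, and the pairing comes from the data and not from a label. With 2 months the same numbers gave -0.109 to 0.0741 and different numbers -0.191 to 0.247, so the 0.148 does not stand out. The members, the gene lists and the motifs were chosen with earlier results of these data known. By rule, all members were described, with the genes of smallest adjusted p at 18 months from other lists and the 5 genes closest to the members' mean course among those with at least 1 CPM at 2 months.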

Additional observations from a re-analysis of the deposited data

How the results depend on the processing

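All fitted changes of the 8 genes against 2 months kept their sign in every alternative except Piwil2 at 24 months. The count of members called at 18 months was 6, and ran from 1 to 7 with 1 sample left out. At 24 months it was 7, and 5 to 7. Between the older ages it was 0 throughout. Genes called at 18 against 2 months numbered 2349 and became 1034 with a replicate block, 4000 with 11 separate libraries, 4052 by DESeq2 and 375 to 2748 with 1 sample left out. At 24 against 2 months 7120 became 4283 to 7467 with 1 sample left out and 5129 with the replicate block, which left 5 and 6 members called and ended the calls of Tdrd1 at 18 months (adjusted p = 0.0675 by edgeR) and Dazl at 24 months (0.0891). The replicate numbers of the 2 month samples pair nothing in the labels. Between 18 and 24 months 1 gene became 0 with library totals alone, with a replicate block and with only the ages compared, with or without the block, 194 by DESeq2 and 0 to 2 with 1 sample left out. DESeq2 gave 1234 of those genes no adjusted p.

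The log2 change of the 8 genes' summed share of oocyte genes was 0.43 at 18 months and 1.83 at 24 months. It became -1.03 and -0.38 against early follicle genes alone, a sum made up mostly of Taf4b. Against growing oocyte genes alone it was 0.71 and 2.61. Without Taf4b, an alternative added after seeing the data, it was 2.60 at 24 months. With 1 sample left out it ran from 0.33 to 0.57 and from 1.58 to 2.18. Low counts limit Mov10l1, Mael and Asz1 at 24 months most. Where a call was lost, the cause was not tested, beyond the fewer samples in each such fit.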
